A study of Mus musculus with 4 samples.

Results

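The SOCS inhibitors and Pim kinases are cytokine feedback genes of the T cell. The set was taken by name as a list of 10 genes, Socs1 to Socs7, Cish, Pim1 and Pim2, of the 39179 gene identifiers counted. All 10 matched an identifier and all 10 passed the filter on low counts, which left 11702 genes to test. The RNA came from CD4 T cells of OT-II mice, whose transgenic receptor recognises ovalbumin, that had been transferred into C57BL/6 recipients. The recipients then received nitrophenol coupled to ovalbumin under the skin, and on day 8 the Thy-1.1+ donor cells were sorted from pooled inguinal lymph nodes. T follicular helper (Tfh) cells were CD44hi CXCR5+ PD-1+ and the activated cells compared with them, called non-Tfh, were CD44hi CXCR5- PD-1-. Every sample thus shares the transgenic receptor, the transfer and the immunisation, and no untreated sample was compared. Each group had 2 libraries, T32 and T53, and the labels do not say that these came from separate animals. The p-values therefore reflect no more than the spread between the samples at hand, which may be technical.

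Library totals ran from 5725358 to 13360563 counts, and levels are given as CPM, a gene's count relative to the total of its library after TMM scaling. The T cell genes Cd3d, Cd3e, Cd3g, Cd4, Cd5 and Cd28 summed to 2793 to 2852 CPM in Tfh and 2571 to 2577 CPM in non-Tfh libraries, and 0 of the 6 passed the test by edgeR, DESeq2 or limma-voom, with 1 at an unadjusted p under 0.05. Of 6 macrophage and monocyte markers, 3 were tested and 1 passed, Itgam, which fell in Tfh libraries by edgeR but not by DESeq2 or limma-voom. The 6 summed to 5.03 to 5.24 CPM in Tfh and 4.62 to 8.21 CPM in non-Tfh libraries, with Cd14 at 0. Of 6 B cell markers, 2 were tested and both rose in Tfh cells, Cd22 and Pax5. The list summed to 140 to 145 CPM in Tfh and 11.3 to 17.8 CPM in non-Tfh libraries, almost all of it Cd22, while Ms4a1 reached at most 0.899 CPM and Cd79a at most 0.674 CPM in any library. S1pr2 of the germinal centre B cell list and Klrb1c of the NK cell list also rose, with Gcsam and Ncr1 at 0 in all libraries. The part of other cell types in the results was not tested.

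SOCS proteins bind phosphorylated receptors or Janus kinases (JAKs) through an SH2 domain and recruit a ubiquitin ligase through a SOCS box. Several are transcribed in response to the STAT factors that they go on to restrain, so these form a negative feedback loop on cytokine signals. Pim kinases are serine/threonine kinases that are active as soon as they are made, are induced by the same STATs, and support growth and survival. In CD4 T cells IL-2 acting through STAT5 opposes the Tfh fate, whereas IL-6 and IL-21 acting through STAT3 favour it.

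Of the feedback inhibitors 3 differed between the sorted groups, and not all in 1 direction. Socs1 rose in Tfh cells, and Cish and Socs2 fell. The other 7 members, Socs3 to Socs7, Pim1 and Pim2, did not pass the test. Thus 3 of 10 members were called at an adjusted p of 0.05, against 8.49% of all genes tested. For the single member that rose the share over all genes was 4.47%, and for the 2 that fell it was 4.02%. The median log2 fold change of the 10 members was 0.014, against -0.0054 for all genes tested. The libraries of the groups did not overlap for 5 of the 10 members, close to the 52.2% of all genes tested that did not overlap. In these bulk samples fewer cells expressing a gene and less of its RNA per cell cannot be told apart.

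**Figure D1:**
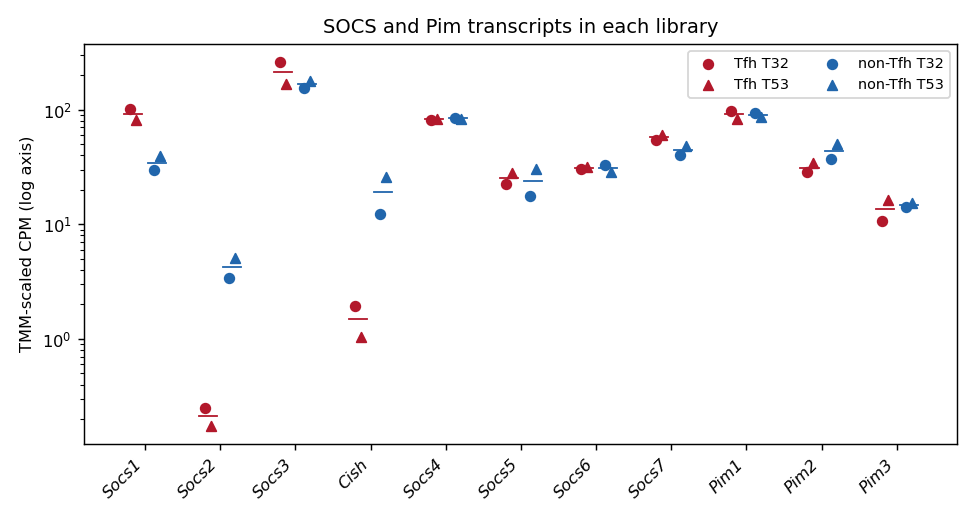
TMM-scaled CPM (log axis) of each member and of Pim3 in the 4 libraries; red marks Tfh and blue non-Tfh, circles are T32, triangles T53, and short lines are group means. Socs1 sits higher in both Tfh libraries (81.9 and 102 CPM against 29.7 and 39.1), Cish and Socs2 sit lower in both, and the points of Socs4, Socs6 and Pim1 lie close together.

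**Figure D2:**
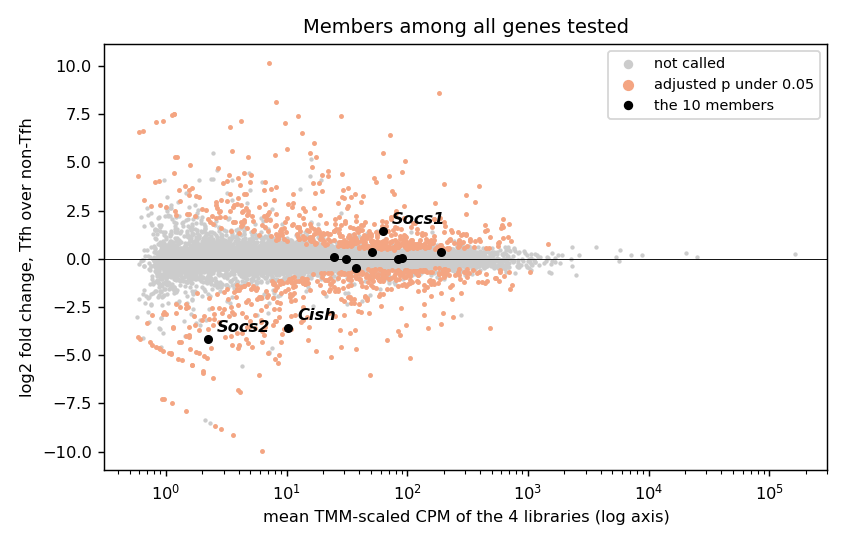
Log2 fold change, Tfh over non-Tfh, against the mean TMM-scaled CPM (log axis) for the 11702 genes tested, with the 994 called genes in orange and the 10 members in black. Socs1 lies above the band of uncalled genes, Cish and Socs2 lie far below it at low abundance, and the unlabelled members lie within it.

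The sequences at the starts of the genes show where STAT-type letters occur. RefSeq windows on GRCm38.p6, from 250 bases before to 50 bases after a gene's start, were at hand for 6 of the 10 members, in 7 windows. They were searched for TTCNNNGAA and TTCNNNNGAA, the palindromes that STAT dimers recognise and that read the same on both strands. TTCNNNGAA occurred in 8.3% of all 32851 windows and TTCNNNNGAA in 6.95%. They were also searched on both strands for GAAANNGAAA, a motif of interferon regulatory factors, which occurred in 3.44% and was added after the sequences had been seen. The windows of Socs4, Pim1 and Pim2 held none of these. No window was at hand for Socs2, Socs5, Socs6 and Socs7. The stretches of Cish, which fell, Socs1, which rose, and Socs3, the most abundant inhibitor, are shown, 5′ to 3′ along the gene, with motif matches in capitals.
Cish, chr9:107296654-107296683, plus strand: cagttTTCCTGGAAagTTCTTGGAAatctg
Socs1, chr16:10785537-10785786, minus strand: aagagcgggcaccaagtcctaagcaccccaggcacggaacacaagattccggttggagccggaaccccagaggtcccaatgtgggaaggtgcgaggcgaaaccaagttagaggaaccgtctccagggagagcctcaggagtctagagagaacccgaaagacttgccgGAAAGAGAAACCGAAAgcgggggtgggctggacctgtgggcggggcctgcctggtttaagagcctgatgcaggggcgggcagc
Socs3, chr11:117969367-117969616, minus strand: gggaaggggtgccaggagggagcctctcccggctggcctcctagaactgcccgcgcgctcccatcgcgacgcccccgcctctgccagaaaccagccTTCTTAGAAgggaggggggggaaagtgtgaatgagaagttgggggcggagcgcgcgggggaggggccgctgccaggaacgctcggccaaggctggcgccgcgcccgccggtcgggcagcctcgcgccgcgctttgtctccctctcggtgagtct
The Cish stretch holds TTCNNNGAA in tandem, at positions 1 and 12 counted from the first transcribed base of the RefSeq model, with 2 bases between the matches. Windows with 2 or more such matches made up 0.457% of all windows. In GENCODE M21 these letters lie in the first exon and untranslated region of the transcript Cish-201 and 51 and 40 bases before the start of Cish-204. The Socs3 match begins 154 bases before the RefSeq start and 69 bases before that of the GENCODE transcript Socs3-203, within an intron of Socs3-202. Both of these GENCODE transcripts are annotated as processed transcripts, and the match begins 334 bases before the start of the protein-coding Socs3-201. The Socs1 capitals are a pair of GAAANNGAAA matches that overlap each other, beginning 83 and 77 bases before the start, and the Socs1 window held neither STAT palindrome. A match is a description of the letters and not of binding.

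Cish encodes CIS, a SOCS protein that masks STAT5 docking sites on cytokine receptors and is a classical STAT5 target. The gene (ENSMUSG00000032578) spans bases 107296026 to 107302784 of chromosome 9 on the plus strand. Its level in the Tfh libraries was 1.93 CPM (T32) and 1.05 CPM (T53), and in the non-Tfh libraries 12.4 CPM (T32) and 26.0 CPM (T53). These levels rest on 23, 6, 166 and 231 counts in the same order. Both Tfh libraries were thus below both non-Tfh libraries, and the non-Tfh libraries stood further apart from each other than the Tfh ones on the CPM scale. Cish fell 11.9-fold in Tfh cells (log2 fold change -3.57 ± 0.489 SE, 95% interval -4.76 to -2.38, adjusted p = 0.0112). On pooled counts, 29 against 397, the ratio was 10.8 in favour of non-Tfh cells (exact 95% binomial interval 7.42 to 16.4, counting error only). Within T32 the difference was 6.42-fold and within T53 24.8-fold. Its size depended on single libraries. Leaving out Tfh T32 gave a log2 fold change of -4.16 (adjusted p = 0.042), leaving out non-Tfh T53 gave -2.95 (adjusted p = 0.00399), and the call was kept in both cases.

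Socs2 encodes an inhibitor best known for restraining growth hormone receptor signalling and is also induced through STAT5. The gene (ENSMUSG00000020027) spans bases 95385362 to 95417180 of chromosome 10 on the minus strand. It was the scarcest member, with 3 counts (T32) and 1 count (T53) in the Tfh libraries and 46 (T32) and 45 (T53) in the non-Tfh libraries. These correspond to 0.251, 0.175, 3.43 and 5.06 CPM. The groups did not overlap, and the Tfh level was close to the limit of detection. Socs2 fell 17.8-fold (log2 fold change -4.15 ± 0.532, 95% interval -5.44 to -2.87, adjusted p = 0.00802), which put it at rank 65 of the 11702 genes from the lowest fold change, with Cish at rank 96. On pooled counts, 4 against 91, the ratio was 18 (95% interval 6.79 to 67.5), so the counts allow a wide range of sizes. Leaving out non-Tfh T32 gave a log2 fold change of -4.41, and leaving out non-Tfh T53 gave -3.86. No value is given without a Tfh library, where 3 counts or fewer would remain in that group.

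Socs1 encodes an inhibitor that blocks the catalytic site of JAKs through a kinase inhibitory region and is a strong brake on interferon and common gamma chain cytokine signals. The gene (ENSMUSG00000038037) spans bases 10782240 to 10785536 of chromosome 16 on the minus strand. The Tfh libraries held 102 CPM (T32) and 81.9 CPM (T53) and the non-Tfh libraries 29.7 CPM (T32) and 39.1 CPM (T53), from 1214, 469, 399 and 348 counts. The lowest Tfh library stood above the highest non-Tfh library. Socs1 rose 2.68-fold in Tfh cells (log2 fold change 1.42 ± 0.182, 95% interval 0.99 to 1.86, adjusted p = 0.00802). Within T32 the difference was 3.42-fold and within T53 2.09-fold. The gene passed the test under all 13 alternative settings run, with log2 fold changes from 1.24 to 1.63, including the test against a minimum fold of 1.5.

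Socs3 encodes the other inhibitor with a kinase inhibitory region, which acts on gp130 receptors such as that of IL-6 and is a target of STAT3. It lies on chromosome 11 (bases 117966079 to 117970047). Its level was 259 CPM (T32) and 166 CPM (T53) in the Tfh libraries and 155 CPM (T32) and 177 CPM (T53) in the non-Tfh libraries. Tfh T32 stood above the other 3 libraries, and Tfh T53 fell between both non-Tfh libraries. The log2 fold change was 0.36 ± 0.219 (95% interval -0.18 to 0.89, adjusted p = 0.423). Its value rested on Tfh T32, since without that library it was 0.0021. The interval thus covers values from a small fall to a rise of 0.89 on the log2 scale.

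Socs4, Socs5, Socs6 and Socs7 belong to the branch of the family with long amino-terminal regions, which has been linked mainly to growth factor and insulin receptors. Socs4 (chromosome 14, 47276931 to 47296102) measured 81.7 and 83.1 CPM in the Tfh libraries and 84.5 and 82.8 CPM in the non-Tfh libraries. It had the smallest standard error of the 10 members, and its log2 fold change was -0.023 ± 0.108 (95% interval -0.28 to 0.24, adjusted p = 0.939). Socs6 (chromosome 18, 88665224 to 88927481) measured 30.1 and 31.6 CPM against 32.8 and 28.8 CPM, with a log2 fold change of -0.0011 ± 0.142 (95% interval -0.34 to 0.34, adjusted p = 0.998). The groups overlapped for both genes. Socs5 (chromosome 17, 87107679 to 87137839), linked to the IL-4 receptor, measured 22.5 and 27.8 CPM against 17.6 and 30.2 CPM. Its spread between non-Tfh libraries exceeded the difference between groups, and the log2 fold change was 0.075 ± 0.279 (95% interval -0.61 to 0.76, adjusted p = 0.918). Socs7 (chromosome 11, 97362551 to 97398542) measured 54.0 and 60.3 CPM in Tfh and 40.5 and 48.1 CPM in non-Tfh libraries. Its groups did not overlap, but its log2 fold change of 0.37 ± 0.142 (95% interval 0.023 to 0.71) did not pass the test (unadjusted p = 0.0401, adjusted p = 0.199). Socs7 was 1.33-fold higher within T32 and 1.25-fold higher within T53.

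Pim1 (chromosome 17, 29490753 to 29496112), the Pim kinase most often described as a STAT5 target, stood at 98.1 CPM (T32) and 83.1 CPM (T53) in the Tfh libraries and at 92.6 CPM (T32) and 85.3 CPM (T53) in the non-Tfh libraries. Both non-Tfh libraries lay between the Tfh libraries. The log2 fold change was 0.030 ± 0.13 (95% interval -0.28 to 0.34, adjusted p = 0.932). Pim2 (chromosome X, 7878262 to 7883432), which supports survival and translation in lymphocytes, measured 28.6 and 33.9 CPM in Tfh and 37.2 and 50 CPM in non-Tfh libraries. The groups did not overlap, yet the log2 fold change of -0.49 ± 0.187 (95% interval -0.94 to -0.034) did not pass (unadjusted p = 0.0388, adjusted p = 0.195). Pim2 was 1.30-fold lower within T32 and 1.48-fold lower within T53, and it passed when no filter on low counts was applied (adjusted p = 0.0359). Pim3, the remaining kinase of the family and not a member of the list, measured 10.6 and 16.4 CPM against 14.1 and 15.4 CPM, with a log2 fold change of -0.15 ± 0.245 (adjusted p = 0.798).

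**Figure D3:**
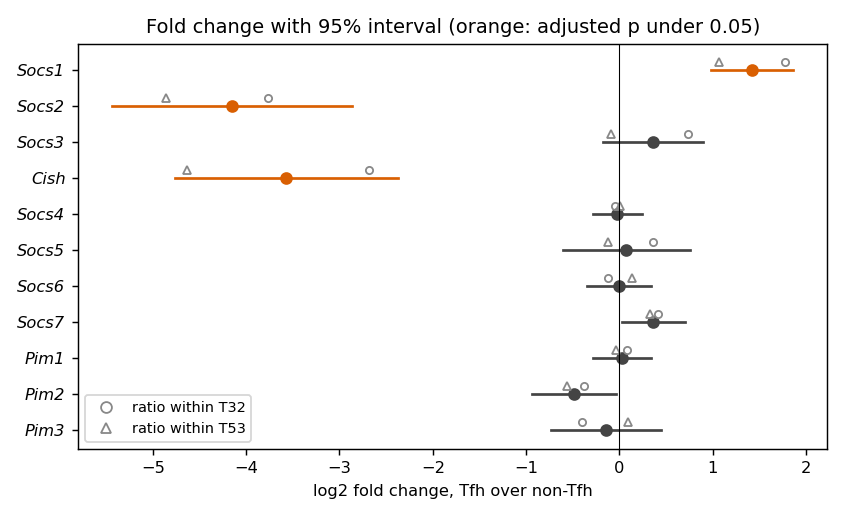
Log2 fold change, Tfh over non-Tfh, of each member and Pim3 (filled circles) with its 95% interval (bars); open circles and triangles are the ratios within T32 and within T53. The intervals of Socs1 (0.99 to 1.86), Socs2 and Cish lie well away from 0, those of Socs7 and Pim2 just miss 0 without passing the adjusted test, and the others cover 0.

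To compare genes with each other, CPM was divided by the exon length of each gene, taken over all its annotated transcripts, which ran from 2.43 kb for Pim3 to 11.3 kb for Socs6. For Cish this length was 6419 bases, most of the gene from base 107296026 to 107302784. A single transcript may be shorter, for Cish as for the other genes, so all ranks, levels per kb and shares depend on this choice. Levels per single transcript were not computed. On this CPM per kb scale Socs3 was the highest SOCS gene in both groups, at 73.4 ± 22.8 CPM per kb (SD, n = 2) in Tfh and 57.4 ± 5.37 in non-Tfh cells. In Tfh cells the order was Socs3, Socs1, Socs4, Socs7, Socs5, Socs6, Cish and Socs2, and no neighbours in this order overlapped. In non-Tfh cells it was Socs3, Socs4, Socs1, Socs7, Socs5, Cish, Socs6 and Socs2, where Socs4 overlapped Socs1, and Cish overlapped both Socs5 and Socs6. Socs1 thus stood beside Socs4 in non-Tfh cells, at 11.8 ± 2.29 against 12.2 ± 0.175 CPM per kb, and above it in Tfh cells, at 31.6 ± 4.81 against 12.0 ± 0.149. The level of Cish was 0.232 ± 0.0968 CPM per kb in Tfh and 2.99 ± 1.5 in non-Tfh cells, and that of Socs2 was 0.0223 ± 0.00569 and 0.445 ± 0.121.

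The makeup of the SOCS transcripts shifted accordingly. Of the summed level per kb of the 8 SOCS genes, Socs1 made up 23.3% (T32) and 24.9% (T53) in the Tfh libraries and 11.4% (T32) and 12.8% (T53) in the non-Tfh libraries. Cish made up 0.2%, 0.144%, 2.15% and 3.85% in the same order. The share of Socs3 was 59.6% and 50.7% in Tfh and 59.8% and 58.2% in non-Tfh libraries, so it was lowest in Tfh T53. The sum itself was 150 and 113 CPM per kb in Tfh and 89.6 and 105 CPM per kb in non-Tfh libraries, with Tfh T32 the highest. Among the 3 Pim kinases, Pim1 led in every library with 51.1 to 66.6% of their sum, followed by Pim2 with 23.3 to 36.1% and Pim3 with 10 to 15.5%, and no neighbours in that order overlapped in either group.

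**Figure D4:**
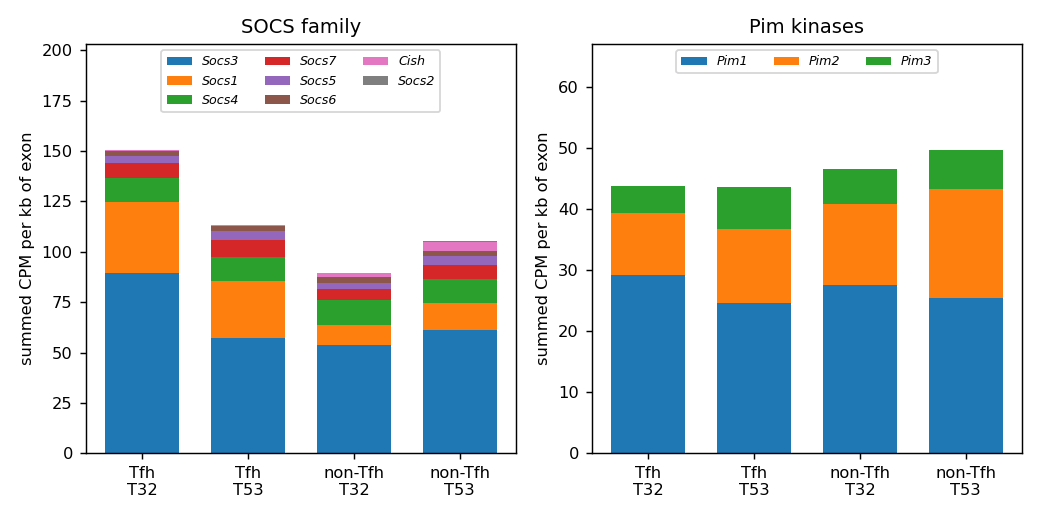
Stacked bars of CPM per kb of exon for the 8 SOCS genes (left) and the 3 Pim kinases (right) in each library. Socs3 is the largest SOCS block in every library, the Socs1 block is 28.2 and 35.0 CPM per kb in the Tfh libraries and 10.2 and 13.5 in the non-Tfh libraries, and Cish is visible only in the non-Tfh bars.

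Likeness of pattern was measured as the root mean square difference of centred log2 CPM over the 4 libraries, among genes that averaged 5 CPM or more. The nearest genes were picked by a search over all such genes in only 4 libraries, and shared control was not tested. Setd4 was nearest to Socs1 (difference 0.0278 on the log2 scale), followed by Setbp1 and the TNF family ligand Tnfsf14 (0.14 each). Setd4 measured 69.2 and 54.8 CPM in Tfh and 19.1 and 25.7 CPM in non-Tfh libraries, the same order of libraries as Socs1. The lymph node homing receptor Ccr7 was nearest to Socs2 (0.109), followed by L1cam (0.185) and Arl4c (0.199). Epas1, a hypoxia-inducible factor, was nearest to Cish (0.26), followed by Ahnak (0.312) and Scml4 (0.332). Epas1 measured 2.09 and 0.699 CPM in Tfh and 11.3 and 18 CPM in non-Tfh libraries, and its log2 fold change was -3.22, or -4.35 without Tfh T32. The prior count of 2 draws in the difference of a gene with as few counts as Socs2. Its nearest genes had smaller log2 fold changes than its -4.15, namely -3.41 for Ccr7, -3.15 for L1cam and -3.57 for Arl4c.

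The nearest tested genes on the chromosome were read beside the members. Of 20 such neighbours of the 10 members, 1 passed the test, where 8.49% of all genes tested passed. It was Mapkapk3, which encodes a kinase downstream of p38 and lies 6.15 kb from Cish. Mapkapk3 measured 38.6 and 43.3 CPM in Tfh and 65.5 and 59.9 CPM in non-Tfh libraries (log2 fold change -0.62 ± 0.13, adjusted p = 0.0376). The call was lost when Tfh T32 (adjusted p = 0.197) or Tfh T53 (0.108) was left out, and likewise for non-Tfh T32 (0.0961). Tnp2, which lies 2.4 kb from Socs1 and was chosen after its value was seen, measured 2.57 CPM in Tfh and 0.71 in non-Tfh cells (log2 fold change 1.80 ± 0.438, adjusted p = 0.0575). How the counting treated strand is not given in the sources used here. Gm17040 and Gm17041, annotated on the strand opposite to Cish, had 0 counts in all libraries, and Gm26885, opposite to Pim1, had 5, 1, 5 and 0. The 3 pseudogenes annotated within Socs6 were not analysed here, and no gene overlapped the other members.

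Around the members stand the genes of the ligase that SOCS boxes recruit, of the JAK-STAT pathway and of the Pim substrates. These lists were drawn up with earlier results of these data known, and over all genes tested 4.47% rose and 4.02% fell. Of 9 genes for the ligase, 0 passed by edgeR, DESeq2 or limma-voom, and 2 had an unadjusted p under 0.05 (median log2 fold change -0.052). The scaffold Cul5 measured 79.8 and 80.0 CPM in Tfh and 83.2 and 82.4 CPM in non-Tfh libraries, and the adaptor Elob 60.6 and 63.9 against 56.7 and 48.3. Other proteins with a SOCS box were listed with 26 genes, of which 13 passed the filter on low counts, 2 rose and none fell. Asb2, a substrate receptor of cullin 5 ligases, measured 126 and 158 CPM in Tfh and 1.42 and 1.91 CPM in non-Tfh libraries, an 86.7-fold rise. Spsb1, which targets inducible nitric oxide synthase, rose 2.43-fold (log2 fold change 1.28 ± 0.267, adjusted p = 0.0402), a call that was lost without Tfh T53 (0.13).

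Of 17 tested genes listed as inhibitors of JAK-STAT signalling outside the SOCS family, 3 rose and 2 fell (median 0.064). Whether each of these genes inhibits the pathway in these cells was not tested. Ptpn11, the phosphatase SHP2, rose 4.22-fold from 216 and 256 CPM in non-Tfh to 861 and 1132 CPM in Tfh libraries (adjusted p = 0.00258), and Bcl6 rose 7.51-fold. Ptpn1, which dephosphorylates JAK2 and TYK2, rose 1.60-fold (adjusted p = 0.0244), a call lost when Tfh T32 (0.0555) or Tfh T53 (0.104) was left out, and likewise for non-Tfh T32 (0.0795). The adaptor Stap1 fell 1.46-fold (adjusted p = 0.0464), and its call was lost whichever library was left out (0.0532 to 0.232), and by DESeq2 (0.052), by voom (0.057) and in a fit that was not robust (0.0501). The remaining member that fell was Dok2. Of the 11 JAKs and STATs, 1 passed the test: Jak2 measured 661 and 677 CPM in Tfh and 310 and 293 CPM in non-Tfh libraries, a 2.22-fold rise (adjusted p = 0.00444). Stat5a (adjusted p = 0.127), Stat5b (0.196) and Stat3 (0.596) did not pass.

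Receptors that signal through JAKs were lower where they passed. Of 22 tested, none rose and 7 fell (median -0.11), where 4.47% of all genes tested rose and 4.02% fell. Il7r fell 35.6-fold, Il2ra 24.2-fold, Il4ra 2.13-fold and the interferon-gamma receptor chain Ifngr1 1.51-fold. Il7r measured 3.35 and 9.26 CPM in Tfh and 181 and 224 CPM in non-Tfh libraries (log2 fold change -5.15 ± 0.443, adjusted p = 0.00581). Its call was lost without non-Tfh T32 (0.0661) or non-Tfh T53 (0.113), and its log2 fold change was -4.45 without Tfh T32 and -5.90 without Tfh T53. The call of Ifngr1 (adjusted p = 0.0405) was lost when Tfh T32 (0.129) or Tfh T53 (0.214) was left out, likewise for non-Tfh T53 (0.0999), and with limma-voom (0.0519). Of 19 cytokines that signal through JAKs, 6 passed the filter on low counts. Il21, Il4 and Lif rose, and Osm fell 2.64-fold from 17.4 and 16.4 CPM in non-Tfh to 6.79 and 5.94 CPM in Tfh libraries (adjusted p = 0.0111).

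Other genes known to be induced by STAT5 were described beside Cish and Socs2. Of 20 such genes, none rose and 6 fell (median log2 fold change -0.46, against -0.0054 for all genes tested). Among all genes tested 4.47% rose and 4.02% fell. The 6 that fell were Id2, a repressor of E proteins, which fell 6.98-fold, Slc2a3, Prdm1, and Il2ra, Il4ra and Osm, which the lists above also hold. Slc2a3, a glucose transporter, fell 1.66-fold (adjusted p = 0.0371), a call lost when Tfh T32 (0.17) or Tfh T53 (0.146) was left out, and likewise for non-Tfh T53 (0.0895). Of 15 tested genes known to be induced by STAT3, 7 rose and 2 fell, while the list's median was -0.30, since its other 6 tested genes all lay below 0. Hif1a rose 3.53-fold, Maf, which drives Il21 and Il4, rose 3.17-fold, and Bcl6 and Il21 are shared with the lists above. Il23r, a receptor chain known from Th17 cells, was among those that fell. These lists share genes and overlap in their known control, so their counts are not independent of each other.

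Of 20 substrates and partners of Pim kinases, 1 rose and 1 fell (median -0.018), where 4.47% of all genes tested rose and 4.02% fell. Nfatc1, a calcium-regulated factor, rose 2.18-fold from 381 and 484 CPM in non-Tfh to 849 and 1041 CPM in Tfh libraries (adjusted p = 0.016). Runx3 fell 6.57-fold (log2 fold change -2.72 ± 0.383, adjusted p = 0.0181). The call of Runx3 was lost without non-Tfh T32 (0.0655) and without non-Tfh T53 (0.0977), and its log2 fold change was -3.48 without Tfh T32.

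**Figure D5:**
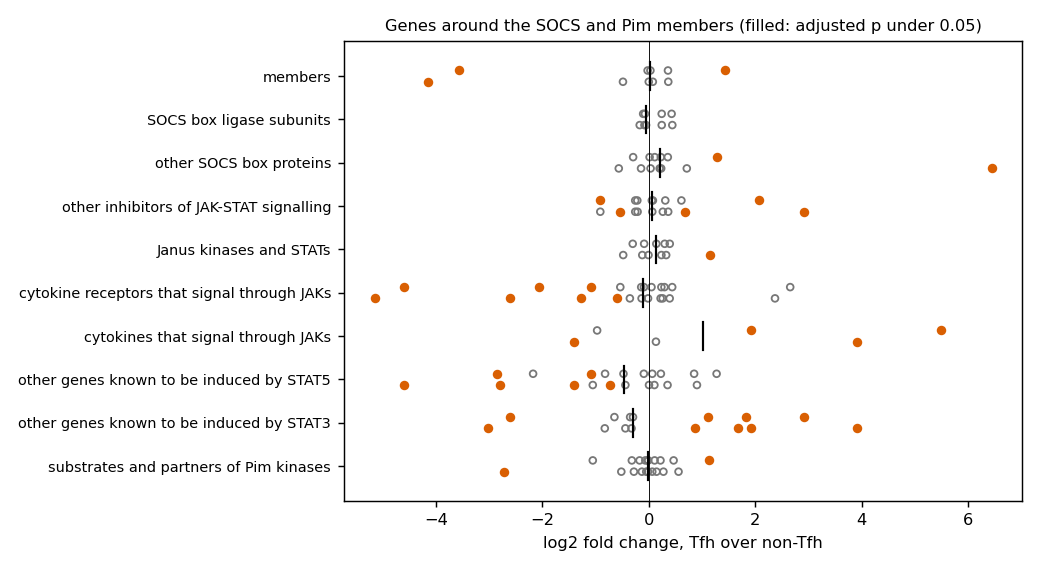
Log2 fold change, Tfh over non-Tfh, of every tested gene of the members and of 9 lists around them, 1 point per gene, filled where the adjusted p was under 0.05; vertical bars are list medians and the vertical offset within a row has no meaning. Filled points lie above 0 among the other SOCS box proteins, below 0 among receptors and STAT5-induced genes, and on both sides for the STAT3-induced genes.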

How the data were processed

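RNA of 4 libraries, 2 Tfh and 2 non-Tfh, was made into stranded total RNA libraries, per the labels' protocols. The authors deposited raw counts per Ensembl gene. TopHat2, Bowtie2, HTSeq and GRCm38 (mm10) are named per the submitters' processing notes; versions, annotation release and strand setting are not given in the sources used here. GENCODE M21 (GRCm38) paired 37693 of 39179 identifiers with symbols and gave positions and exon lengths; the remaining 1486 identifiers, kept in the library totals, took 0.209 to 0.228% of each library. In R 4.3.3, edgeR 4.0.16 kept genes by filterByExpr, scaled by TMM and tested Tfh against non-Tfh across all genes by robust quasi-likelihood fits with 2 residual degrees of freedom, two-sided, with Benjamini-Hochberg adjustment at 0.05. The standard error (SE) was obtained by dividing the size of the log2 fold change by the root of F, and 95% intervals use it with the moderated degrees of freedom. Log2 CPM for likeness used a prior count of 2. Alternatives included DESeq2 1.42.0, limma-voom (limma 3.58.1), and each library left out, where a lone library was assumed to vary like the other group.

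The members, lists and tests were chosen with earlier results of these data known. Named were all members, Pim3, of each list the 4 called genes of highest mean CPM (2 where none was called), the 3 genes of nearest pattern to each called member, called neighbours and overlapping genes. Dok2, Prdm1, Il9r, Il23r, Stat5a, Stat5b, Stat3, Tnp2 and the cell markers printed were named after their values were seen.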

Additional observations from a re-analysis of the deposited data

How the results depend on the processing

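Socs1 and Cish passed the test, in the same direction, in all 13 alternatives run, and Socs2 in all 12 in which it was tested. Socs2 was removed where 5 CPM in 2 libraries was required. Its 12 include the fits without a Tfh library, which left 3 counts or 1 count in that group and so add little. With all 4 libraries used, adjusted p ran up to 0.0271 for Socs1, 0.0164 for Socs2 and 0.0464 for Cish. The members called numbered 5 with the library number as a replicate block, which added Socs7 (adjusted p = 0.0434) and Pim2 (0.0322). Pim2 also passed without a filter on low counts (0.0359). The labels do not tie same-numbered libraries to each other; their deviations correlated with r = 0.368 over 11702 genes, and with only 2 such pairs the block was kept as an alternative. Over all genes 994 were called, 2120 with the block, 1986 without a filter, 427 against a minimum fold of 1.5, and 545 (without Tfh T53) to 884 with a library left out. Of the genes in the lists around the members 30 were called, 48 with the block, 48 without a filter, 18 against the minimum fold, and 22 to 29 with a library left out. Among the genes named by rule, for which alone this was tabulated, calls lost against the minimum fold were Spsb1, Ptpn1, Stap1, Ifngr1, Slc2a3, Nfatc1 and Mapkapk3. The call of Runx3 was lost with the block (adjusted p = 0.065). With 4 counts of Socs2 in Tfh cells, the counting interval of its ratio alone spans 6.79 to 67.5.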

Other observations

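The non-Tfh libraries held unequal counts of some cytokines that signal through JAKs. Ifng, the interferon-gamma gene, had 101 counts in non-Tfh T53, 3 in non-Tfh T32, 3 in Tfh T53 and 0 in Tfh T32, and did not pass the filter on low counts. Il2 had 21 counts in non-Tfh T53 and 6 in non-Tfh T32, against 5 and 1 in the Tfh libraries T32 and T53. Non-Tfh T53 also held the highest Cish level, at 26.0 CPM, and the highest Socs2 level, at 5.06 CPM. Il2ra went the other way, at 38.3 CPM in non-Tfh T53 and 70.6 CPM in non-Tfh T32, as did Osm (16.4 and 17.4 CPM). Markers of other cells differed between these libraries in both directions. Lyz2 had 39 counts in non-Tfh T53 and 2 in non-Tfh T32, and Cd79b had 2 and 20. These genes were picked after their values were seen, and whether they bear on the members was not tested. Usp18, an interferon-induced brake on JAK-STAT signalling, measured 8.73 CPM in Tfh T53 and 35.6 to 52.7 CPM in the other 3 libraries, and its groups overlapped (adjusted p = 0.502).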
